A study of Mus musculus with 8 samples.

Results

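The excitation-contraction coupling triad genes described here are *Cacna1s*, *Cacnb1*, *Cacng1*, *Stac3*, *Ryr1*, *Trdn*, *Jph1*, *Jph2*, *Casq1* and *Sln*. The rule that finds their probe sets uses the gene symbol, and the signal only where a gene has several. The list itself was chosen with earlier results of these data known. All 10 of 10 were found, each with 1 of the 22206 gene-level probe sets of the Clariom S Mouse array. The arrays measured RNA of gastrocnemius (GAS), a mostly fast calf muscle, from male C57/Bl6j mice of 14 weeks per the labels. A group of 4 arrays came from muscles injected with an adeno-associated virus (AAV) carrying a scrambled short hairpin RNA (scrmb), and a group of 4 from muscles injected with an AAV carrying a hairpin against *Mytho* (MYTHO), both taken 3 weeks after injection. No animal carried an engineered allele. The study describes the scrambled virus as given to the leg opposite the knockdown leg, and each animal number in the array names occurs once per group. The arrays therefore form 4 pairs of legs, called animals A to D here. Both hairpins were driven by the U6 promoter, which is active in all cell types and not in myofibres alone, and RNA came from a piece of whole muscle. The viruses were of serotype 1, which the study describes as favouring skeletal muscle cells. The question is whether lowering *Mytho* was accompanied by a change in the transcripts that couple the muscle action potential to calcium release.

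The triad is the junction where a transverse tubule, an inward fold of the myofibre membrane, meets the terminal sacs of the sarcoplasmic reticulum. The voltage sensor in the tubule, Cav1.1, changes shape on depolarisation and opens the ryanodine receptor of the reticulum by direct contact, so that calcium flows out and the myofibre contracts. Junctophilins hold both membranes together, triadin links the release channel to calsequestrin, which stores calcium in the sacs, and sarcolipin slows the pump that brings the calcium back.

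Median log2 signals lay between 6.39 and 6.47 over the 8 arrays, which carry a ceiling of 19.93. Among the 5 defining skeletal muscle transcripts listed, *Acta1* and *Myh4* stood at that ceiling on every array, *Ckm* lay between 18.00 and 18.37 and *Des* between 17.24 and 17.75. The remaining marker, *Mb*, had 18.58 to 19.43 in scrmb and 19.33 to 19.73 in MYTHO. Its log2 fold change was 0.55 ± 0.21 (SE, limma unadjusted p = 0.0245, adjusted p = 0.326). Of all probe sets, 4.81% were higher at an unadjusted p under 0.05. The targeted transcript, listed as *D230025D16Rik*, was lower in every MYTHO array than in every scrmb array, with log2 signals of 8.08 to 8.80 against 10.78 to 11.35 (log2 fold change -2.81 ± 0.21 (SE), limma adjusted p = 0.00044).

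Sequence upstream of the voltage sensor and the release channel, the genes whose products touch each other across the triad, is printed to show the region before the start of the pair at the centre of the coupling, and not for their changes, which did not pass the test. Of the 10 triad genes 5 had a window in the promoter table, and 3 of these, *Cacna1s*, *Ryr1* and *Casq1*, lay outside the annotated gene. The windows run from 250 to 31 bases before the transcript start, on GRCm38.p6 and from RefSeq. For *Cacna1s* and *Ryr1* this start lies some bases inside the outer gene positions given below. The *Cacna1s* window lies at chr1:136052561-136052780 on the plus strand and the *Ryr1* window at chr7:29125182-29125401 on the minus strand, both outside the annotated gene. Capitals mark E-boxes (CANNTG, which reads the same on both strands), the short motif bound by MyoD and related factors.
Cacna1s: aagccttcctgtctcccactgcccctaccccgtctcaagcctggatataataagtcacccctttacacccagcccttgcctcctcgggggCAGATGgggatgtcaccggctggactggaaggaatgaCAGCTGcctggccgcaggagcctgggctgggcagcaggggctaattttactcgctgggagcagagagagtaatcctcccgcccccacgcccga
Ryr1: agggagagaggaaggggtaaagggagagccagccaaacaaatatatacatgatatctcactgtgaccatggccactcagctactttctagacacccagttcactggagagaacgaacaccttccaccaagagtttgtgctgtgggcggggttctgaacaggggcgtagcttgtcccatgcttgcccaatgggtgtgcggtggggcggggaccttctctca
The *Cacna1s* window held 2 E-boxes and the *Ryr1* window 0, and the *Casq1* window, which is not printed, held 2. Among 32851 promoter windows of the same length, 62.1% held at least 1 E-box and 27.4% at least 2. A match to the MEF2 motif, searched on both strands, was in none of the 3 windows and in 0.42% of all windows. These counts describe letters in the windows and were not tested against expression.

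None of the 10 triad genes changed by 2-fold or more at an unadjusted p under 0.05, the study's criterion for its arrays, which 1.51% of all probe sets met. By limma, 0 of 10 had an adjusted p under 0.05, against 0.027% of all probe sets. At an unadjusted p under 0.05 the count was again 0 of 10, against 12.4% of all probe sets, made up of 4.81% that were higher and 7.58% that were lower in MYTHO. Adjusted p-values of the genes ran from 0.449 for *Cacng1* to 0.961 for *Casq1*. The genes were split evenly, with 5 higher and 5 lower, and the median log2 fold change was -0.005, equal to the median over all probe sets. In 0 of 10 genes did the groups fail to overlap, which happened for 6.46% of all probe sets. Because RNA came from whole muscle, fewer cells of a type and less RNA per cell cannot be told apart in any of these values.

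**Figure D1:**
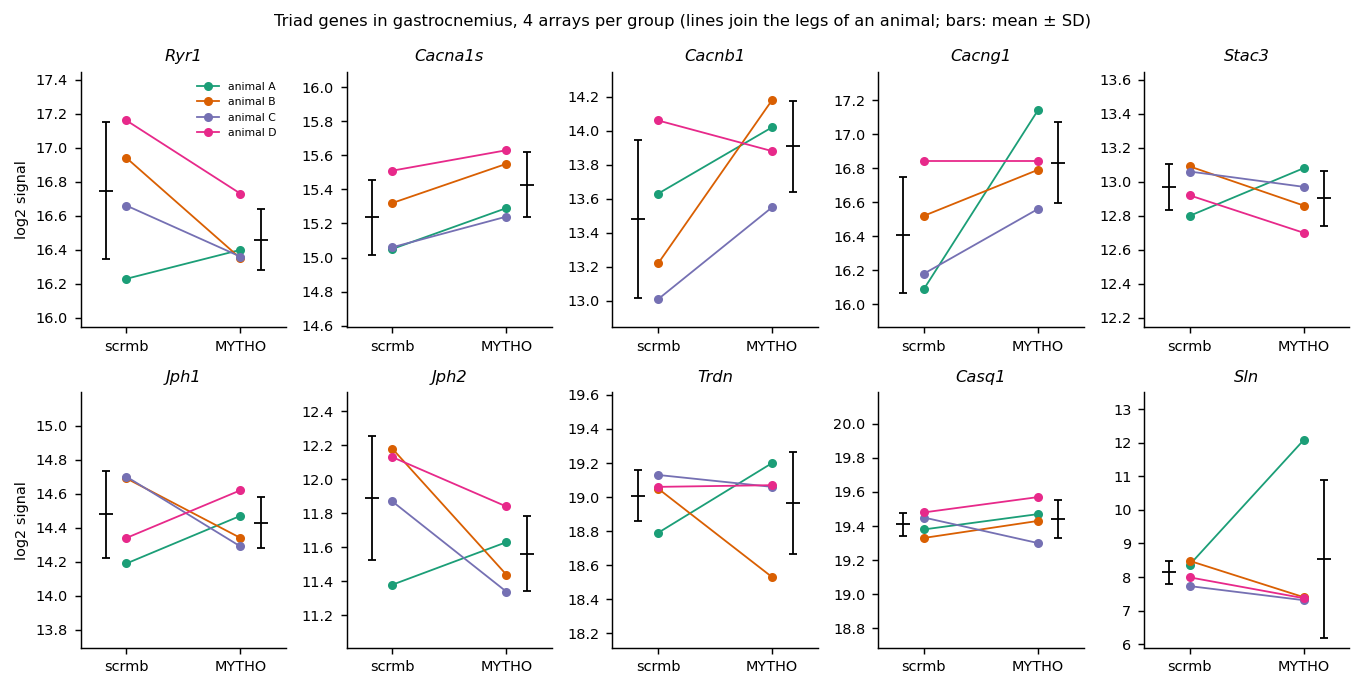
Log2 signal (y axis) of each triad gene in the scrmb and MYTHO legs (x axis), with a line joining the legs of each animal and black bars giving the mean ± SD of 4 arrays. Every panel spans the same height except *Sln*, and the groups overlap in all 10 panels, with the MYTHO leg of animal A at 12.08 for *Sln*.

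The intervals show what size of change the arrays could have hidden. For the 9 genes other than *Sln*, the standard error of the log2 fold change was under 0.25, and the 95% intervals together ran from -0.80 (*Jph2*) to 0.96 (*Cacnb1*), which stays inside a 2-fold change in either direction. The interval of *Sln*, from -1.48 to 2.28, did not.

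**Figure D2:**
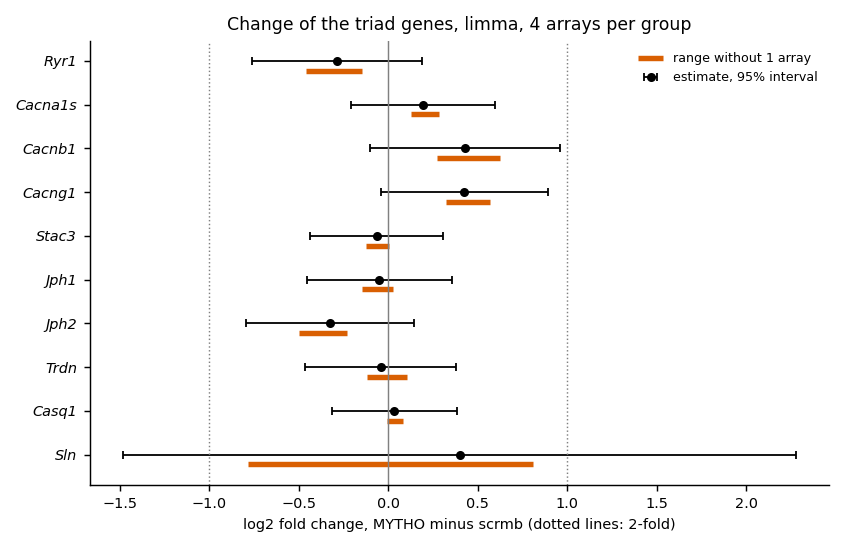
Log2 fold change of MYTHO over scrmb (x axis) for each triad gene (y axis), with black points and bars for the limma estimate and its 95% interval and orange bars for the range of estimates with 1 array left out. All intervals cross 0, and *Sln* alone reaches past the dotted lines at a 2-fold change.

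Among the voltage sensor genes, *Cacna1s*, *Cacnb1* and *Cacng1* had higher MYTHO means and *Stac3* a slightly lower one, and none passed the test. *Cacna1s* (chromosome 1, 136052806 to 136119822) codes for the pore-forming and voltage-sensing subunit of Cav1.1. In the order A, B, C, D, the scrmb legs had log2 signals of 15.05, 15.32, 15.06 and 15.51, and the MYTHO legs 15.29, 15.55, 15.24 and 15.63. The MYTHO leg was the higher one in 4 of 4 animals, by 0.12 to 0.24, although the group ranges overlapped. It was the only triad gene of which this was true (1 of 10, against 8.94% of all probe sets), and 0 of 10 were lower in all 4 animals (10.8% of all probe sets). Scrmb averaged 15.23 ± 0.22 (SD, n = 4) and MYTHO 15.43 ± 0.19 (SD, n = 4), and the log2 fold change was 0.19 ± 0.18 (SE, limma adjusted p = 0.730).

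*Cacnb1* (chromosome 11, 98001508 to 98023034) codes for the cytoplasmic beta subunit, which brings the channel to the tubule membrane. Its log2 signals were 13.63, 13.22, 13.01 and 14.06 in the scrmb legs and 14.02, 14.18, 13.55 and 13.88 in the MYTHO legs. The MYTHO leg was higher in animals A, B and C, by up to 0.96 in animal B, and lower by 0.18 in animal D, whose scrmb leg was the highest of its group. The log2 fold change of *Cacnb1* was 0.43 ± 0.24 (SE), a 1.35-fold ratio, with a limma p of 0.106 and an adjusted p of 0.513. Without the scrmb array of animal D it was 0.62, with an unadjusted p of 0.0195 and an adjusted p of 0.241. Without the scrmb array of animal C it was 0.27 (unadjusted p = 0.293), and without both legs of animal B 0.25 (unadjusted p = 0.409).

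*Cacng1* (chromosome 11, 107703218 to 107716476) codes for the gamma subunit, a membrane protein that dampens the calcium current of Cav1.1. Signals on the log2 scale were 16.09, 16.52, 16.18 and 16.84 in the scrmb legs and 17.14, 16.79, 16.56 and 16.84 in the MYTHO legs. Animal A differed most, by 1.05, and the legs of animal D were equal. With a log2 fold change of 0.42 ± 0.21 (SE), *Cacng1* had the smallest unadjusted p of the 10 genes, 0.0695 (adjusted p = 0.449, exact two-sided permutation p = 0.143, where the smallest p that 4 against 4 arrays allow is 0.0286). With animal D's scrmb array left out it was 0.57 with an unadjusted p of 0.0203, and with animal C's MYTHO array left out 0.52 with 0.0452. It was 0.32 without either array of animal A, left out 1 at a time (unadjusted p of 0.181 and 0.185), and 0.22 without both (unadjusted p = 0.379). All of these adjusted p-values were above 0.05.

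*Stac3* (chromosome 10, 127501617 to 127508823) codes for the adaptor that couples Cav1.1 to the release channel and helps the sensor reach the membrane. It had scrmb log2 signals of 12.80 to 13.09 and MYTHO log2 signals of 12.70 to 13.08, nearly the same range. The log2 fold change of *Stac3* was -0.07 ± 0.17 (SE, adjusted p = 0.916), with a 95% interval from -0.44 to 0.31.

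Among the genes of the release channel and the junction, *Ryr1* and *Jph2* had lower MYTHO means and *Trdn* and *Jph1* differed by 0.05 or less on the log2 scale. *Ryr1* (chromosome 7, 29003340 to 29125179) codes for the calcium release channel itself. In the same order of animals, the scrmb legs had log2 signals of 16.23, 16.94, 16.66 and 17.16, and the MYTHO legs 16.40, 16.35, 16.36 and 16.73. The MYTHO leg was lower in animals B, C and D, by 0.59, 0.30 and 0.43, and higher by 0.17 in animal A, whose scrmb leg was the lowest of its group. The MYTHO arrays of animals A, B and C lay within 0.05 of each other and that of animal D stood above them. Scrmb averaged 16.75 ± 0.40 (SD, n = 4) and MYTHO 16.46 ± 0.18 (SD, n = 4) for *Ryr1*, and the log2 fold change was -0.29 ± 0.22 (SE, adjusted p = 0.647, exact two-sided permutation p = 0.257).

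*Jph2* (chromosome 2, 163336242 to 163398049), one of the junctophilins that tether the tubule to the reticulum, differed in the same direction as *Ryr1* in each animal. Its log2 signals were 11.38, 12.18, 11.87 and 12.13 in the scrmb legs and 11.63, 11.44, 11.34 and 11.84 in the MYTHO legs. Animals B, C and D were lower in the MYTHO leg, by 0.74, 0.53 and 0.29, and animal A was higher by 0.25. The log2 fold change of *Jph2* was -0.33 ± 0.22 (SE, adjusted p = 0.581). The scrmb array of animal A had the lowest scrmb signal for both genes. Without it, *Jph2* stood at -0.50 (unadjusted p = 0.0301) and *Ryr1* at -0.46 (unadjusted p = 0.0446), with adjusted p-values of at least 0.381. Other arrays moved the values towards 0, to -0.15 for *Ryr1* without animal D's scrmb array (unadjusted p = 0.509) and to -0.23 for *Jph2* without animal B's scrmb array (unadjusted p = 0.343).

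*Jph1* (chromosome 1, 16942104 to 17097922), the junctophilin found mainly in skeletal muscle, had log2 signals of 14.19 to 14.70 in scrmb and 14.29 to 14.62 in MYTHO. Higher MYTHO legs in animals A and D, each by 0.28, faced lower ones in animals B and C, by 0.35 and 0.41. The log2 fold change was -0.05 ± 0.19 (SE, adjusted p = 0.945). *Trdn* (chromosome 10, 33083483 to 33476709) codes for triadin, which anchors calsequestrin to the release channel. Its log2 signals were 18.79 to 19.13 in scrmb and 18.53 to 19.20 in MYTHO, where animal A gave the highest and animal B the lowest of all 8 arrays. The log2 fold change of *Trdn* was -0.04 ± 0.19 (SE, adjusted p = 0.958).

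*Casq1* (chromosome 1, 172209894 to 172219895) codes for the calsequestrin of fast fibres, the main calcium-binding protein of the store. It had the smallest spread of the 10 genes, with log2 signals of 19.33 to 19.48 in scrmb and 19.30 to 19.57 in MYTHO, and a log2 fold change of 0.03 ± 0.16 (SE, adjusted p = 0.961). These signals lie close to the ceiling of 19.93, as do those of *Trdn*, although neither gene reached it on any array. Near a ceiling the scale may be compressed, and how far that holds for these probe sets was not tested.

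*Sln* was the triad gene that differed most among arrays. It codes for sarcolipin, a small membrane protein that binds the reticulum calcium pump and lowers the calcium it moves, and in adult mice it is abundant in slow and atrial muscle and low in fast limb muscle. The gene lies on chromosome 9 from 53850251 to 53853849. In animals A to D, the scrmb legs had log2 signals of 8.37, 8.48, 7.73 and 7.99 and the MYTHO legs 12.08, 7.40, 7.31 and 7.37. The MYTHO leg of animal A thus stood 3.60 above every other array, and the MYTHO legs of animals B, C and D stood below every scrmb leg. On that 1 array, *Sln* was the only one of 22206 probe sets to exceed all other arrays by at least this gap, its own. On the scrmb array of animal D 1 probe set exceeded all other arrays by so much, and on each of the remaining arrays 0 did.

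Over all arrays the log2 fold change of *Sln* was 0.40 ± 0.86 (SE, adjusted p = 0.895, exact two-sided permutation p = 1), with MYTHO at 8.54 ± 2.36 (SD, n = 4) and scrmb at 8.14 ± 0.35 (SD, n = 4). Without the MYTHO array of animal A the sign turned, to -0.78 ± 0.22 (SE), with MYTHO at 7.36 ± 0.046 (SD, n = 3), an unadjusted p of 0.005 and an adjusted p of 0.217. Without both legs of animal A it was -0.71 (unadjusted p = 0.0146, adjusted p = 0.347). Animals B, C and D were lower in the MYTHO leg by 1.08, 0.42 and 0.62, and animal A was higher by 3.71. The value without both legs was added after the arrays had been seen, and the direction of *Sln* rests on whether the MYTHO array of animal A is counted.

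Fat cell transcripts were also highest on that array. All 4 of 4 adipocyte markers (*Adipoq*, *Plin1*, *Cidec* and *Lep*) had their highest log2 signal of the 8 arrays in the MYTHO leg of animal A (for *Plin1* the 8 arrays ran from 4.48 to 7.55). The log2 of their summed signal was 13.36 there, against 7.86 to 10.15 in the other MYTHO legs and 7.56 to 12.01 in the scrmb legs. The scrmb leg of animal C had the second-highest sum, 12.01, and the lowest scrmb signal of *Sln*, 7.73. The part of adipocyte RNA in the *Sln* value was not tested. The slow-fibre sum was highest on the same array too, at 17.36, and the next highest was 17.26 in the MYTHO leg of animal C, with *Sln* at 7.31. The part of slow-fibre content in the *Sln* value was not tested either.

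**Figure D3:**
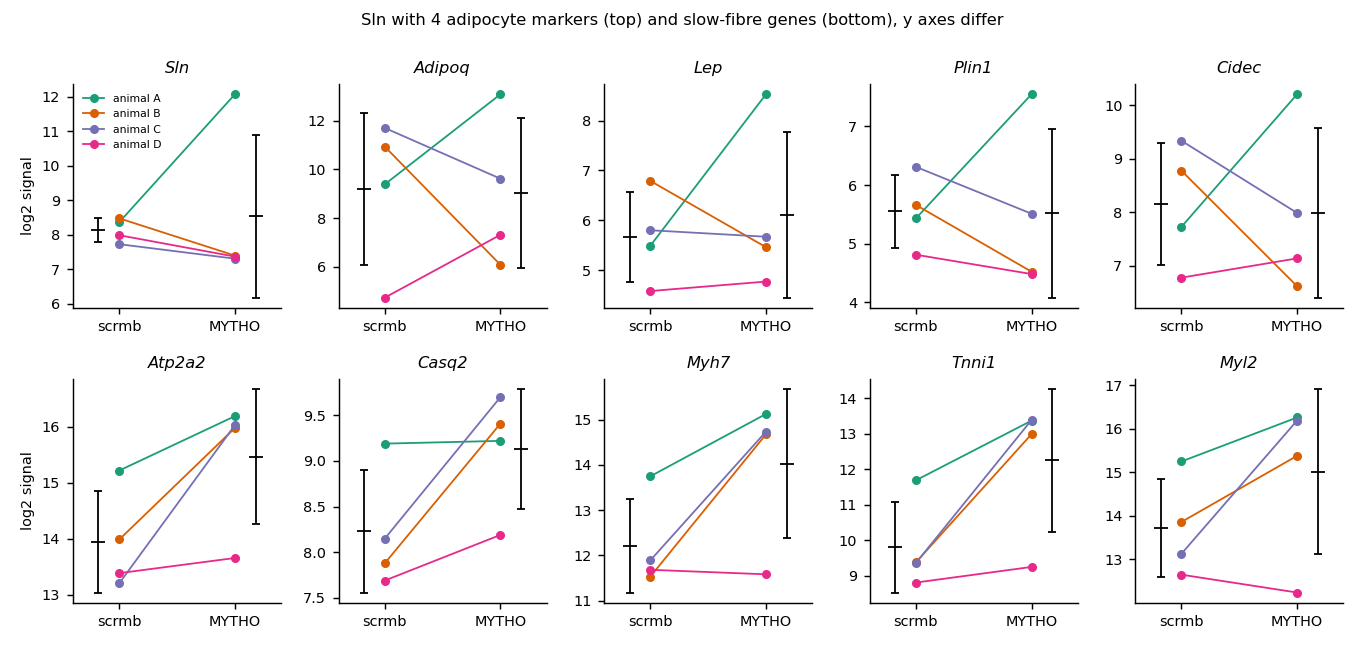
Log2 signal (y axes, which differ between panels) in the scrmb and MYTHO legs of each animal (x axis) for *Sln* and the 4 adipocyte markers in the top row and for *Atp2a2*, *Casq2* and slow-fibre myofilament genes in the bottom row, with black bars for mean ± SD of 4 arrays. The MYTHO leg of animal A is the highest point in all 5 top panels, and the MYTHO leg of animal D is the lowest MYTHO point in all 5 bottom panels.

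Read by animal, the triad genes did not move together in 1 direction. In animal A the MYTHO leg was higher for 10 of 10 genes, with a median difference of 0.28 on the log2 scale. In animals B, C and D it was higher for 4, 3 and 4 genes, with medians of -0.29, -0.12 and -0.09, and 1 gene was equal in animal D. Over all probe sets the MYTHO leg was higher for 48.3%, 50.5%, 47.0% and 48.3% in animals A to D, so animal A did not stand apart in the share over all probe sets. The scrmb leg of animal A was the lowest scrmb array for 7 of the 10 genes, and the MYTHO leg of animal C the lowest MYTHO array for 7. Genes measured on the same arrays share those arrays, so these counts are a description and carry no test.

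**Figure D4:**
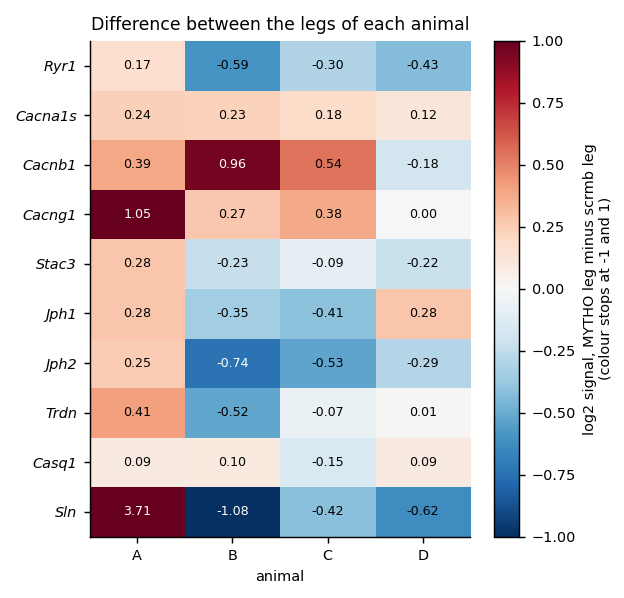
Log2 signal of the MYTHO leg minus the scrmb leg for each triad gene (rows) in each animal (columns), printed in every cell, with red for higher and blue for lower in the MYTHO leg. The column of animal A is positive throughout, from 0.09 to 3.71, and only the row of *Cacna1s* is positive in all 4 animals.

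For the triad genes with the widest spread over the 8 arrays, *Sln* (SD 1.58) and *Cacnb1* (SD 0.42), the probe sets with the most similar profile were sought, by the root mean square difference of log2 signals after each gene was centred on its mean over the 8 arrays. For *Sln* they were *Serpina3n* (0.596), a secreted protease inhibitor, *Lep* (0.716), the adipocyte hormone leptin, and *Rbp4* (0.735), the retinol carrier. Each was highest in the MYTHO leg of animal A, which follows from the search, since that array sets most of the *Sln* profile. *Lep* is also among the adipocyte markers above. For *Cacnb1* they were *Gm20267* (0.0886), *Cope* (0.117) and *Yap1* (0.119).

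The other genes of calcium handling on the array were 45 of 46 listed, and 5 of them were higher and 0 lower at an unadjusted p under 0.05 (over all probe sets 4.81% were higher and 7.58% lower, 12.4% in all). None had an adjusted p under 0.05. By list, 0 of 9 further voltage sensor genes, 2 of 20 partners of the release channel and the store, 1 of 6 uptake genes and 2 of 10 genes of store-operated entry and the tubule were among the 5. Their groups did not overlap for 2 of 45, *Jph3* and *Cacnb2*, against 6.46% of all probe sets. The MYTHO leg was higher in all 4 animals for 10 of 45 and lower in all 4 for 2 of 45, against 8.94% and 10.8% of all probe sets. Each of the 5 genes lost its unadjusted call when at least 1 of the arrays was left out, while the log2 fold changes kept their sign, with ranges of 1.27 to 2.11 for *Atp2a2*, 0.71 to 1.22 for *Casq2*, 0.44 to 0.76 for *Sypl2*, 0.39 to 0.60 for *Jph3* and 0.44 to 0.74 for *Orai1*.

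**Figure D5:**
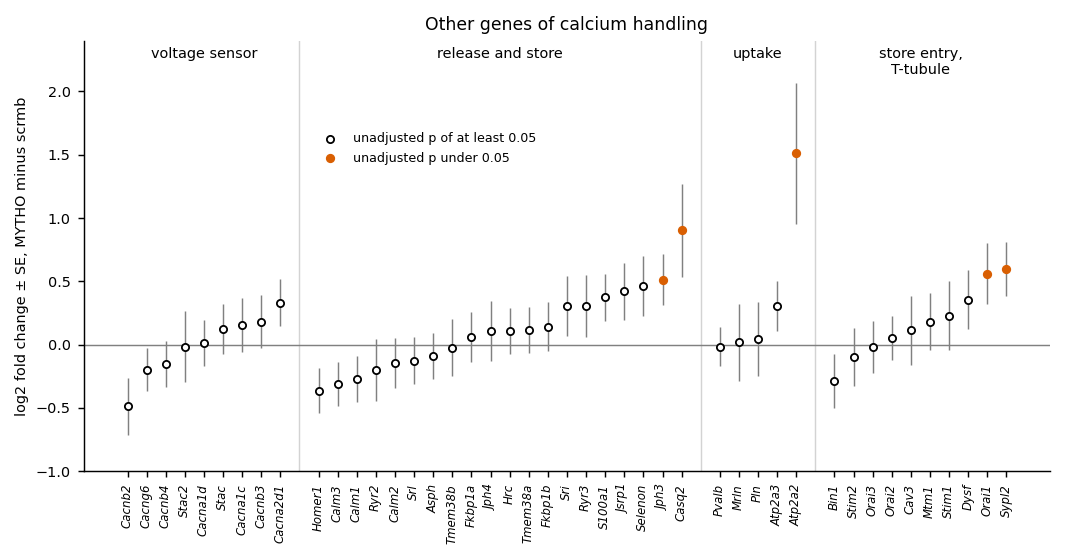
Log2 fold change ± SE of MYTHO over scrmb (y axis) for the other calcium-handling genes (x axis), ordered by size within each list, with orange points for an unadjusted p under 0.05. *Atp2a2* at 1.51 and *Casq2* at 0.90 stand highest, and *Atp2a1*, saturated on all 8 arrays, is not drawn.

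Close relatives of triad genes were among these 5. *Casq2*, the calsequestrin of slow and cardiac muscle and the relative of *Casq1*, had log2 signals of 9.19, 7.88, 8.15 and 7.69 in scrmb and 9.22, 9.41, 9.70 and 8.19 in MYTHO, higher in 4 of 4 animals but by only 0.03 in animal A. The log2 fold change of *Casq2* was 0.90 ± 0.37 (SE, unadjusted p = 0.0301, adjusted p = 0.346). *Jph3*, a junctophilin of the brain, had dim signals of 4.02 to 4.52 in scrmb and 4.57 to 5.20 in MYTHO on the log2 scale, where the lowest value on the arrays was 2.38, with a log2 fold change of 0.51 ± 0.20 (SE, adjusted p = 0.327). *Cacnb2*, the beta subunit of the heart and the relative of *Cacnb1*, ran the other way, with 7.80, 6.87, 6.94 and 6.87 in scrmb and 6.44, 6.67, 6.72 and 6.70 in MYTHO (log2 fold change -0.49 ± 0.23 (SE), unadjusted p = 0.0532, adjusted p = 0.411). Without animal A's scrmb array *Cacnb2* stood at -0.26 (unadjusted p = 0.173), and without both legs of that animal at -0.20. It was -0.57 without the scrmb array of animal B or of animal D (unadjusted p of 0.0431 and 0.0411). A random block for animal gave it an unadjusted p of 0.0490 at an unchanged fold change.

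The pump that *Sln* acts on is coded by *Atp2a1* in fast fibres and by *Atp2a2* in slow fibres and heart. *Atp2a1* was saturated at 19.93 on every array, so no change could be measured. *Atp2a2* had log2 signals of 15.22, 13.99, 13.21 and 13.39 in scrmb and 16.19, 15.98, 16.03 and 13.66 in MYTHO, higher in 4 of 4 animals, with a log2 fold change of 1.51 ± 0.56 (SE, unadjusted p = 0.0191, adjusted p = 0.303). The unadjusted p was 0.0825 with trend and robust eBayes at the same fold change, 0.00265 with animal as a block, 0.0592 without animal C's scrmb array (log2 fold change 1.27) and 0.00031 without animal D's MYTHO array (2.11, adjusted p = 0.0990). Slow-fibre markers were also higher in MYTHO on average. Their median difference was 1.275, 2.72, 2.86 and 0.01 in animals A to D, against 0.97, 1.99, 2.82 and 0.27 for *Atp2a2*. For *Casq2* it was 0.03, 1.53, 1.55 and 0.50. Of 6 slow-fibre myofilament genes, 6 were higher in MYTHO, 5 had an unadjusted p under 0.05 (4.81% of all probe sets were higher at that level) and 0 had an adjusted p under 0.05, with a log2 summed signal of 13.99 to 16.25 in scrmb and 13.87 to 17.36 in MYTHO, where the leg of animal D was the lowest of all 8 arrays. Of 8 fast-fibre genes 3 were higher and 3 lower, *Myh4* was saturated on every array, and 0 had an adjusted p under 0.05. Only *Myh1* was called at an unadjusted p under 0.05, and it was higher (log2 fold change 0.70 ± 0.25 (SE), unadjusted p = 0.0178). Several of the others lay close to the ceiling of 19.93. The part of fibre-type content in the *Atp2a2* and *Casq2* values was not tested.

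At the tubule and its calcium entry, *Orai1*, the pore of store-operated entry, had log2 signals of 8.18 to 8.84 in scrmb and 8.44 to 9.35 in MYTHO (log2 fold change 0.56 ± 0.24 (SE), unadjusted p = 0.0381, adjusted p = 0.370). *Stim1*, the calcium sensor that opens it, had 9.47 to 10.59 in scrmb and 9.97 to 10.88 in MYTHO (0.23 ± 0.27 (SE), adjusted p = 0.784), and without 1 array the *Stim1* estimate ran from 0.016 (animal B's MYTHO array) to 0.42 (animal D's scrmb array). *Sypl2*, which codes for the triad membrane protein mitsugumin-29, had 9.87 to 10.85 in scrmb and 10.80 to 11.08 in MYTHO (0.59 ± 0.21 (SE), unadjusted p = 0.0165, adjusted p = 0.290). Some markers of endothelial cells and fibroblasts differed at an unadjusted p under 0.05 in the same comparison. The log2 summed signal of 4 endothelial markers was 13.28 to 13.65 in scrmb and 13.83 to 13.96 in MYTHO, with 4 of 4 higher, 2 at an unadjusted p under 0.05 (4.81% of all probe sets were higher at that level) and 0 at an adjusted p under 0.05. Of 4 fibroblast markers 3 were lower, 1 of them, *Dcn*, at an unadjusted p under 0.05 (7.58% of all probe sets were lower at that level) and 0 at an adjusted p under 0.05. Their log2 summed signal, 17.64 to 18.07 in scrmb and 17.02 to 17.63 in MYTHO, was nearly all *Dcn* (17.63 to 18.06 and 17.01 to 17.62), while their mean log2 signal overlapped between the groups (10.82 to 10.99 in scrmb and 10.44 to 11.26 in MYTHO). Of the smooth muscle, macrophage, adipocyte and Schwann cell markers, 4 each, 0 had an unadjusted p under 0.05. Of 4 satellite cell markers 1, *Cdh15*, was higher at that level (log2 fold change 0.51 ± 0.21 (SE), unadjusted p = 0.0305, adjusted p = 0.35). The part of any of these cell types in the values of *Orai1*, *Sypl2* or the triad genes was not tested. The count of 5 among the 45 genes at an unadjusted p under 0.05 fell to 0 without animal C's scrmb array, to 2 without animal B's MYTHO array and to 3 without either array of animal A (left out 1 at a time).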

How the data were processed

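The authors deposited log2 signals of 8 Clariom S Mouse arrays, computed with the Transcriptome Analysis Console version 4.0.1 at gene level (SST-RMA, which corrects background, quantile normalizes and summarises probes), with annotation release 36 on mm10. RMA and the Affymetrix Expression Console are also named in the submitters' processing notes. Deposited log2 signals carry 2 decimals and are capped at 19.93. The authors' group averages, fold changes, p-values and false discovery rates for the same comparison were not used. Gene positions are those of RefSeq on GRCm38.p6, the same assembly as mm10.

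Genes were matched by the exact symbol in the table, after splitting the 836 rows that name several genes, and the brightest probe set would have been kept had there been several. Groups were compared with limma 3.58.1 (lmFit and eBayes, default settings) in R 4.3.3 on all 22206 probe sets, MYTHO minus scrmb, two-sided and without a block (the study names an eBayes ANOVA for its arrays and states no pairing term for it), with Benjamini-Hochberg adjustment over all probe sets. Exact permutation tests used all 70 relabellings. The 4 arrays per group limit the precision. The code was tested on simulated data. The members, lists and alternatives were chosen with earlier results of these data known. Of each other calcium-handling list, genes with an unadjusted p under 0.05 or groups that do not overlap were named, with *Atp2a1*, *Atp2a2*, *Stim1* and *Orai1* in any case. Cell type markers were given by list, and not every marker that met this rule was named. The pairing of legs comes from the design, with the scrambled virus in the opposite leg and an animal number in the array names, while the labels' own replicate numbers match no array name. Deviations from the group means between the legs of animals A to D had correlations over probe sets (no independent replicates) of 0.0027, -0.0014, 0.13 and 0.087. *Strit1* was not matched. Alternatives were quantile normalization, median centring, filters on dim or saturated probe sets, trend and robust eBayes, array weights, blocks by animal, a fold minimum of 1.5 and leaving out each array or, added after seeing the data, each animal.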

Additional observations from a re-analysis of the deposited data

Results flagged for a closer look

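In 6 of 36 groups of 4 arrays, 1 array stood apart, since its gap to the nearest other array, as a share of the group's range, exceeded Dixon's 95% critical value, which chance does in about 1 in 20 groups. For *Sln* in MYTHO the share was 0.981, with animal A at 12.08. In *Ryr1* it was 0.868 in MYTHO, with animal D at 16.73 above the others at 16.35 to 16.40. *Atp2a2* had 0.917 in MYTHO, with animal D at 13.66 below the rest. *Cacnb2* had 0.925 in scrmb, with animal A at 7.80. *Stim1* had 0.901 in MYTHO, with animal B at 10.88. The targeted gene *D230025D16Rik* had 0.833 in MYTHO, with animal C at 8.80.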

How the results depend on the processing

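The counts of triad genes past 2-fold and with an adjusted p under 0.05 were 0 under every alternative run, a fold minimum of 1.5 included, and their median log2 fold change stayed between -0.17 and 0.08, from -0.09 to 0.07 without 1 array. The count at an unadjusted p under 0.05 was 0 to 2 without 1 array, 1 with trend and robust eBayes (*Cacng1*), and 2 without animal A (*Jph2*, *Sln*) or animal D (*Cacnb1*, *Cacng1*). With the replicate block by animal it was 0, and the smallest unadjusted p was 0.0804. Of the other calcium-handling genes, 5 had passed, against 0 to 6 without 1 array, 8 with array weights, 3 without animal A, 2 without animal B or C, and 6 with the replicate block, fixed or random. The fixed block added *Jsrp1*, chosen after its values were seen (limma unadjusted p from 0.0846 to 0.0456), and lost no call. The random block added *Cacnb2* (limma unadjusted p = 0.0490) and lost no call. Of 394 single-gene values, 11 reversed: without 1 array *Stac3* ran from -0.12 to 0.0025, *Jph1* from -0.15 to 0.023, *Trdn* from -0.12 to 0.10, *Casq1* from -0.01 to 0.08 and *Sln* from -0.78 to 0.81. *Casq1* was -0.073 under quantile normalization, *Jph1* 0.05 and 0.07 without animals B and C, *Trdn* 0.12 without animal B and *Sln* -0.71 without animal A. The cause was not tested. Averaging over probe sets was not run, since each triad gene has 1. The ceiling of 19.93 hides any change of *Atp2a1*.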

Other observations

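Differences between triad genes within an array were also computed for the 45 pairs of the 10 genes, where the size of a difference between 2 probe sets has no meaning but its change between groups does. In 3 of 45 pairs the groups did not overlap, in 4 of 4 animals each. That is close to the 6.46% of single probe sets that did not overlap, and no share was computed for pairs of other probe sets. These pairs all hold *Ryr1* or *Cacng1*, so they are not independent. They were singled out after their values were seen, so their values are a description and no test is given. The log2 difference *Ryr1* minus *Cacna1s* was 1.18, 1.62, 1.60 and 1.65 on the scrmb arrays, in the order A, B, C, D, and 1.11, 0.80, 1.12 and 1.10 on the MYTHO arrays. *Ryr1* minus *Cacng1* was 0.14 to 0.48 in scrmb and -0.74 to -0.11 in MYTHO. *Cacng1* minus *Jph2* averaged 4.52 in scrmb and 5.27 in MYTHO.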
